A study of Mus musculus with 18 samples.

Results

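The Oog (oogenesin) and Pramel (PRAME-like) genes were examined in the ovaries of F1 mouse pups whose mothers ate a high-methionine or a control diet. Members were all symbols made of Oog, Pramel or Pramef followed by a number, and 40 of the 30172 listed genes met this rule, 4 of them named Oog and 36 named Pramel. Of these, 19 reached 1 FPKM (fragment counts divided by gene length and library size, so that genes can be compared) in at least 3 of the 18 libraries, and 21 did not. All pups were wild-type C57BL/6J females, and RNA came from the whole ovary at postnatal day 3, 7 or 21 (Pd3, Pd7, Pd21). F1-HHcy pups had dams on chow with 3% methionine, a diet used to raise homocysteine (hyperhomocysteinemia, HHcy), from 4 weeks before mating by the labels (longer by the study's methods) until weaning. F1-Control pups had dams on normal chow, and neither group of pups was treated itself. Each of the 6 diet and day groups had 3 libraries, and by the labels the libraries of the 2 earlier days form batch 1 and those of Pd21 form batch 2. The sources do not say how many pups or litters stand behind a library, so p-values measure the spread between these libraries.

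PRAME-family proteins are built largely of leucine-rich repeats and are best known from germ cells, early embryos and tumours. The human founder, PRAME, is a substrate receptor of a Cullin 2 ubiquitin ligase, a complex that marks proteins for destruction. The mouse family expanded by gene duplication, chiefly on chromosome 4, and many copies are transcribed in oocytes. Oogenesins are made from the fetal ovary through the first divisions of the embryo. Oocytes lie dormant in primordial follicles until some are activated and start to grow, and growing oocytes accumulate the maternal RNA that the early embryo uses.

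The members lay in 6 groups on GRCm38.p6 when genes less than 1000000 bases apart were joined. The largest held 23 members on chromosome 4 between 143394441 and 144408467, of which 12 reached 1 FPKM in 3 libraries. A group of 10 members lay on chromosome 5 between 93481827 and 95485589, and 4 of these passed. Oog1 and Pramel51 lay on chromosome 12, Pramel32 stood alone on chromosome 4 between 88627320 and 88634186, 3 members that did not pass lay between 101834969 and 101943183 on chromosome 4, and Pramel3 lay on chromosome X. The positions come from RefSeq, in which all 40 symbols were found.

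Promoter sequences from RefSeq (GRCm38.p6, 250 bases before and 50 after the transcript start) were listed for 32 members, 15 of them among the 19 that passed. The letters TAATTG, known as an element bound by the oocyte homeobox protein NOBOX, were searched on both strands and stood in 9 of these 15 promoters and in 12 of all 32, against 8% of all 32851 promoters. The related TAATTA was in 1 of the 15 (5.29% of all promoters), TGATTG, known for LHX8, was in 2 (14%), the E-box CANNTG was in 14 (72.3%) and TATAAA was in 5 (13.6%). A second stretch, GGTGTGGC, was chosen after the sequences were read, and 10 of the 15 held it, against 2.8% of all promoters. Those 10 were Oog1, Oog2, Oog3, Oog4, Pramel23, Pramel25, Pramel26, Pramel27, Pramel29 and Pramel32, and in them the stretch began between 75 and 42 bases before the start. It was absent from the promoters of Pramel1, Pramel13, Pramel15, Pramel38 and Pramel48, while Pramel11 and Pramel24, which did not pass, also had it. The promoters are copies of each other to differing degrees, with 93.1% identity between Pramel26 and Oog2, 85.4% between Pramel25 and Pramel29 and 80.6% between Pramel32 and Oog4, so they are not independent examples. A match describes letters only and does not show binding. Oog1, Oog2, Pramel23 and Pramel27, which were called higher in F1-HHcy at Pd7, had no TAATTG, and their promoters are not shown. The promoters of 6 members with large diet differences, each holding both stretches, are shown first. Those of 2 members not called by diet on any day follow. TAATTG and GGTGTGGC are in capitals (CAATTA and GCCACACC where they lie on the other strand). The sequences run 5′ to 3′ on each gene's strand.
Pramel26 (chr4:143816044-143816343, minus strand): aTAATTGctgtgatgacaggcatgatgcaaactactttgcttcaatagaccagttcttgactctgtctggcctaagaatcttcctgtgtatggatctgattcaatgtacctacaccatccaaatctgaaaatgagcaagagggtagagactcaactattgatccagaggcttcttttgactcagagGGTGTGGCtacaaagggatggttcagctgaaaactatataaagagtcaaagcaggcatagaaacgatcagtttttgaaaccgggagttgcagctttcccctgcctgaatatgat
Oog3 (chr4:144162602-144162901, minus strand): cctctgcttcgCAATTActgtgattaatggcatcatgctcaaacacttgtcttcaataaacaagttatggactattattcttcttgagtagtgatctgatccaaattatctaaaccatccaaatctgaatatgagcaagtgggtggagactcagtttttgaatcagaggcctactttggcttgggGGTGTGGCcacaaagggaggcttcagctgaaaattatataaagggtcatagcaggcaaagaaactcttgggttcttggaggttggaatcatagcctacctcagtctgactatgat
Oog4 (chr4:143450275-143450574, minus strand): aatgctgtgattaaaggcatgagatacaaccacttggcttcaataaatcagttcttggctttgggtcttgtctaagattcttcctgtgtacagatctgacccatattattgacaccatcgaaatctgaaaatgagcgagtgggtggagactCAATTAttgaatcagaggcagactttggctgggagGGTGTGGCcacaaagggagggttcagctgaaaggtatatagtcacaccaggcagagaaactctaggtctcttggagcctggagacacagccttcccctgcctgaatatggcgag
Pramel25 (chr4:143789084-143789383, plus strand): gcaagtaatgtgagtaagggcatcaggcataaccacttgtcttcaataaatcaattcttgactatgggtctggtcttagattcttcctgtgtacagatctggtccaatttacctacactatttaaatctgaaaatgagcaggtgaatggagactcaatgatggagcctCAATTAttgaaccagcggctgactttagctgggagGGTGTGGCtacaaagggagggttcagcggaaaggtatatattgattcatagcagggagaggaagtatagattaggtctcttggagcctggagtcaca
Pramel29 (chr4:144212968-144213267, minus strand): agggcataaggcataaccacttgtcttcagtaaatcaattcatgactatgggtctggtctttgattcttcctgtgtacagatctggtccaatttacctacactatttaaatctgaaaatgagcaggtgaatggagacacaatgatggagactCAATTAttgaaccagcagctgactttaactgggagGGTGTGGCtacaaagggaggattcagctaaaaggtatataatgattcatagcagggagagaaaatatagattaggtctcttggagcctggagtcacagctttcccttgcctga
Pramel32 (chr4:88634137-88634436, minus strand): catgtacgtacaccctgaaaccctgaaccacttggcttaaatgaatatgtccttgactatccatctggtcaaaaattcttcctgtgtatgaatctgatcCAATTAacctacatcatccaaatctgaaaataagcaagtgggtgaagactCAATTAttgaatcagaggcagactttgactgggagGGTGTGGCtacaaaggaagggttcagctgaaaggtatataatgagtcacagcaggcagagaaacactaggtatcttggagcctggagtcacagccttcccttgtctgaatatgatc
Pramel13 (chr4:144408415-144408714, minus strand): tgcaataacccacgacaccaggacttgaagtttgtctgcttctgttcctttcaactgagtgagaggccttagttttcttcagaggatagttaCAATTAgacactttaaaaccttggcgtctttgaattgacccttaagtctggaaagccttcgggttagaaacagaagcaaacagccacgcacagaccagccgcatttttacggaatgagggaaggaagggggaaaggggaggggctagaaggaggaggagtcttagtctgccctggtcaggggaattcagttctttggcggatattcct
Pramel15 (chr4:144377884-144378183, minus strand): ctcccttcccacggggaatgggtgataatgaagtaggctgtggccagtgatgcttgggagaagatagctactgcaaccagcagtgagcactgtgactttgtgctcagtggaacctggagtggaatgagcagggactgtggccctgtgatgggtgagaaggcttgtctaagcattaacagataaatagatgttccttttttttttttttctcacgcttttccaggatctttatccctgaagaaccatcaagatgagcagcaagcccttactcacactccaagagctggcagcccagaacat
In Oog4, Pramel29 and Pramel32 a TAATTG began 99, 98 and 101 bases before the start, in Pramel25 it began 82 before it, and in Pramel26 and Oog3 it lay much farther out, close to the 5′ end of the window. Pramel13 had TAATTG 158 bases before its start without GGTGTGGC, and Pramel15 had neither.

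The libraries held 33630641 to 39399281 fragments on genes, and a value of 1 FPKM of a member rested on far more than a handful of fragments (1.16 FPKM of Oog3 was 77 fragments). Members share sequence, and fragments from a stretch that is identical in another gene cannot be assigned. Of the 33 members matched to GENCODE M21 transcripts, Oog1 had 76.7% of its 100-base stretches in another gene, Pramel48 71.4%, Pramel47 67.8%, Pramel34 36.7% and Pramel51 34%. The values of these 5 are therefore uncertain. So are those of Pramel3 (62.1%) and Pramel14 (56.3%), which did not pass. Pramel27 (26.1%), Pramel26 (24.2%), Oog2 (22.4%), Pramel25 (16.1%), Oog3 (10.8%) and Pramel29 (9.84%) shared less. Oog4, Pramel1, Pramel12, Pramel13, Pramel15, Pramel23 and Pramel32 shared no stretch of that length.

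At Pd3 the control ovary carried little RNA of most members, and the family RNA that was there came mainly from Pramel13, a gene needed to maintain spermatogonial stem cells in the testis. Pramel13 measured 56.5, 49.9 and 57.9 FPKM in the 3 control Pd3 libraries. Pramel26 measured 0.279, 0.347 and 2.45 FPKM there. It had the highest mean over all 18 libraries, while Pramel13 had the higher mean in both Pd3 groups and in controls at Pd7. By Pd7 Pramel26 measured 17.6, 20.4 and 36.5 FPKM in controls. Every control Pd7 library thus lay above every control Pd3 library for Pramel26, and the log2 difference of FPKM + 1 was 3.77 ± 0.42 (SE, limma, adjusted p = 0.000165). In controls 10 of the 19 members rose from Pd3 to Pd7 at an adjusted p under 0.05, against 5.27% of the 14607 genes tested. They were Oog1, Oog4, Pramel15, Pramel25, Pramel26, Pramel27, Pramel29, Pramel32, Pramel34 and Pramel51, with log2 differences of 0.94 (Pramel15) to 3.77 (Pramel26). The filter of 1 FPKM in 3 of the 18 libraries could be met by Pd7 libraries alone, which favours a rise in such a comparison. The count therefore describes these members and does not support a wider statement.

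Pramel1, best known from the testis, went the other way in controls. It measured 1.75, 1.56 and 1.71 FPKM at Pd3 and 0.791, 0.185 and 0.311 FPKM at Pd7. The control groups did not overlap, and Pramel1, the 1 member called lower (against 6.08% of genes), fell by 0.93 ± 0.21 on the log2 scale (SE, limma, adjusted p = 0.0112), a call that was lost without control Pd3 replicate 1 or control Pd7 replicate 2 or 3. At Pd21 it measured at most 0.167 FPKM in controls. Pramel3, the member on the X chromosome, was seen at 36 fragments over the 3 control Pd3 libraries and at 0 in all Pd21 libraries. A count of 0 allows up to 3 fragments over a group's libraries. Pramel3 shares 62.1% of its 100-base stretches with other genes, so its counts are uncertain. Pramel6 and Pramel7, known from the early embryo, were not among the 40 members listed.

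Under the maternal high-methionine diet 13 members rose between Pd3 and Pd7, against 2.29% of all genes, and none fell at that threshold (0, against 3.18%). Oog2 measured 2.29, 0.629 and 2.10 FPKM at Pd3 and 6.85, 3.81 and 11.9 FPKM at Pd7 in F1-HHcy, 2 sets that did not overlap, and its log2 difference was 1.63 ± 0.35 (SE, limma, adjusted p = 0.0198). In controls Oog2 lay between 0.0146 and 0.146 FPKM at Pd3 and between 0.215 and 0.799 FPKM at Pd7, sets that did not overlap either (log2 difference 0.44 ± 0.35, adjusted p = 0.423), and its diet difference was not called as changed between these days (adjusted p = 0.323). The count of 13 fell to 1 without F1-HHcy Pd3 replicate 2 or F1-HHcy Pd7 replicate 1, to 2 without F1-HHcy Pd3 replicate 3, and to 4 and 7 without F1-HHcy Pd7 replicates 2 and 3. The levels of Pd21 belong to another batch, so age and batch cannot be told apart there and no test of Pd21 against the earlier days was made.

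**Figure D1:**
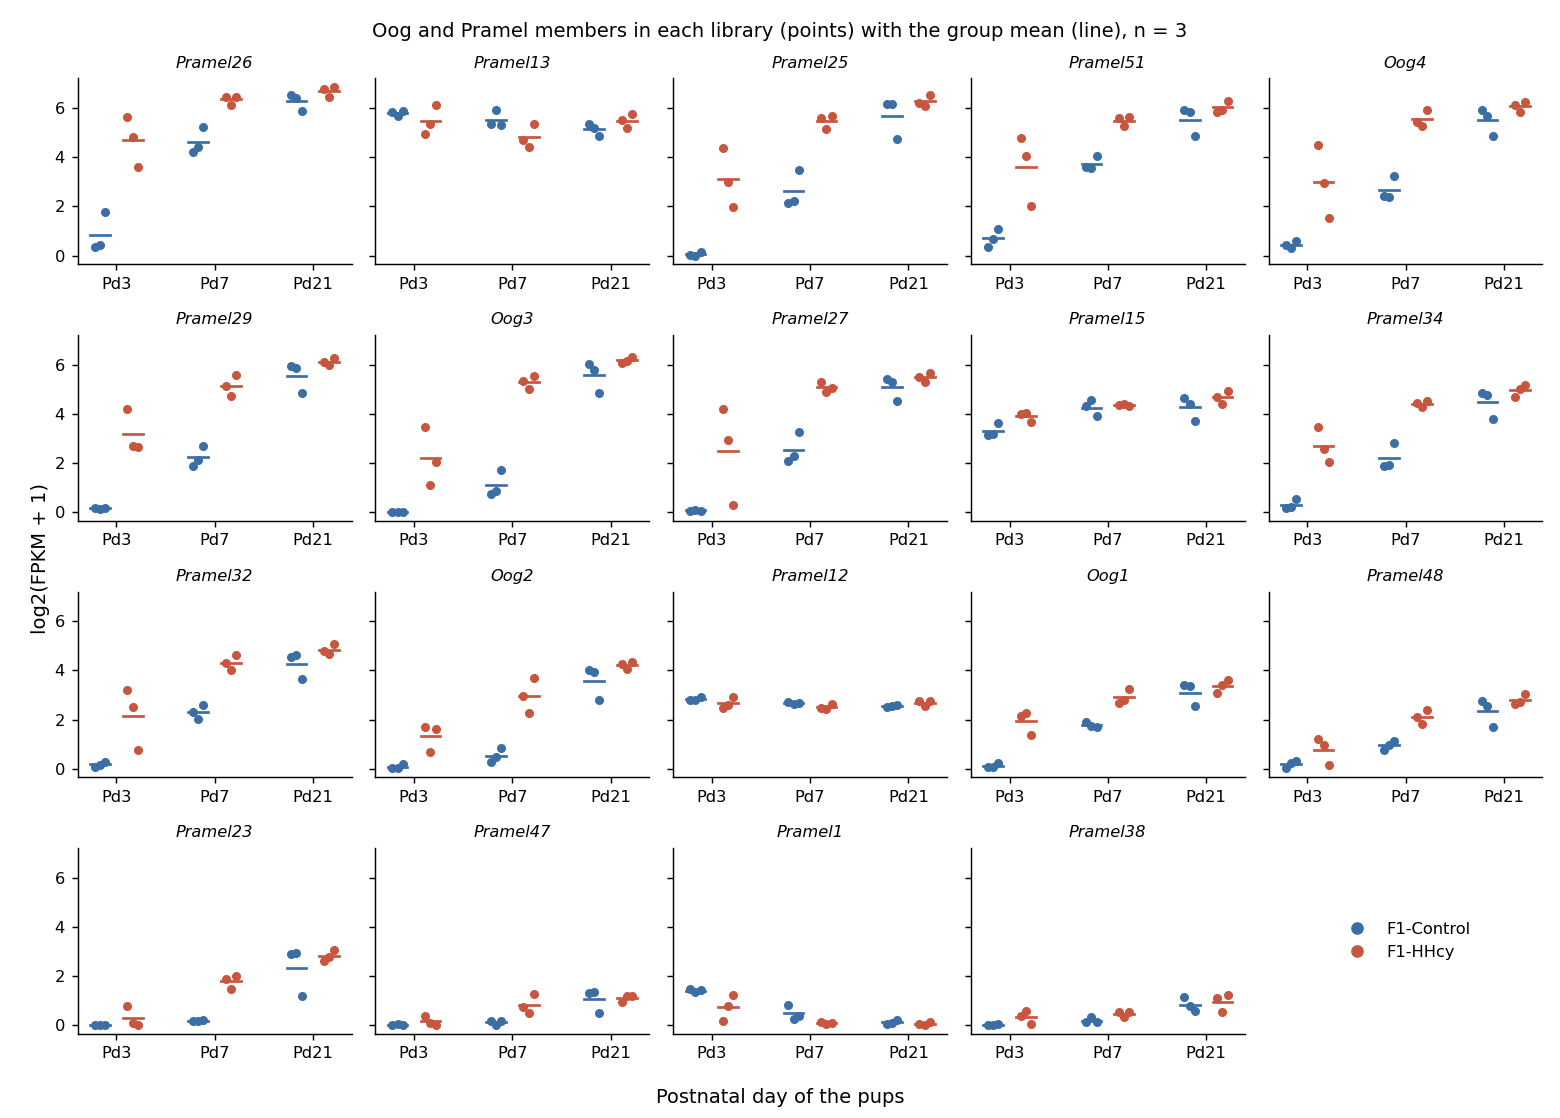
Each panel shows 1 of the 19 members that reached 1 FPKM in 3 libraries, with log2(FPKM + 1) on the y axis and the postnatal day on the x axis; points are libraries, lines are means of 3 libraries, blue is F1-Control and red is F1-HHcy. Pramel26 climbs in controls from a mean of 1.03 FPKM at Pd3 to 24.8 at Pd7 and 78.1 at Pd21, and its F1-HHcy libraries lie above the controls at Pd3 and Pd7, whereas in Pramel13 and Pramel12 the libraries of the 2 diets overlap on every day.

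Because levels per length can be compared between genes, the make-up of the family RNA could be followed. Pramel13 made up 76.7%, 73.8% and 69.6% of the summed FPKM of the 40 members in the control Pd3 libraries. Pramel15 and Pramel12 came next in that group, with mean shares of 12.0% and 8.2%. In the F1-HHcy Pd3 libraries Pramel13 made up 12.5%, 26.8% and 55.5%, a mean of 31.6% that became 19.7% without replicate 3. Its mean share was 32.7% in controls at Pd7, 6.3% in F1-HHcy at Pd7 and, at Pd21, 7.4% in controls and 6.6% in F1-HHcy. Pramel26 had a mean share of 1.28% in control Pd3 ovaries (0.446% without replicate 3) and of 15.4% to 18.6% in each of the other 5 groups. Shares also depend on the other members, and the level of Pramel13 itself was 54.7 ± 4.28 FPKM in controls and 46.1 ± 20.6 in F1-HHcy at Pd3 (mean ± SD, n = 3).

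**Figure D2:**
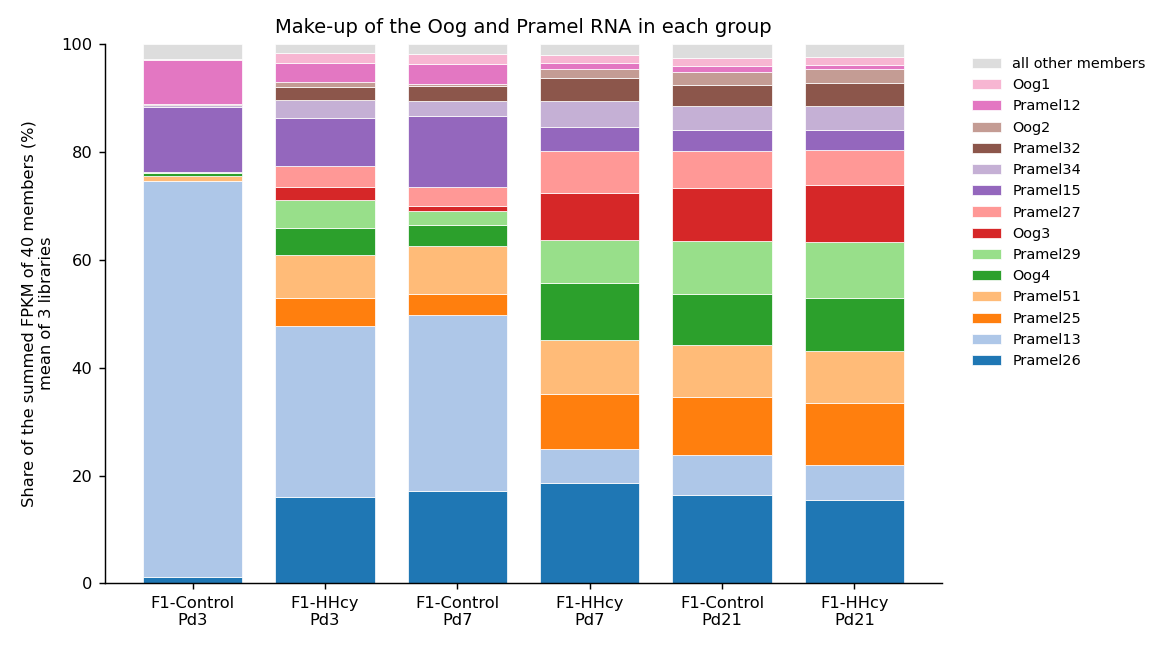
The stacked bars give the share of each of the 14 most abundant members in the summed FPKM of all 40, as the mean of 3 libraries, for the 6 diet and day groups; grey is the rest. Pramel13 fills 73.4% of the control Pd3 bar, close to 32% of the F1-HHcy Pd3 bar (12.5% to 55.5% by library) and of the control Pd7 bar, and under 8% of the other 3.

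At Pd3, 5 members with little RNA in control ovaries were called higher in F1-HHcy ovaries, namely Pramel26, Pramel29, Pramel25, Oog1 and Pramel34. Genes were tested on a day if they reached 1 FPKM in 3 of its 6 libraries. Pramel29, Pramel25, Oog1 and Pramel34 passed this filter through F1-HHcy alone, so their groups had to be apart. Pramel26 measured 48.4, 27.5 and 11.3 FPKM in the F1-HHcy libraries against 0.279, 0.347 and 2.45 FPKM in controls. All F1-HHcy values lay above all control values. The log2 difference of Pramel26 was 3.84 ± 0.55 (SE, limma, adjusted p = 0.0216), the highest of the 13277 genes tested that day. Pramel29 measured 17.4, 5.41 and 5.23 FPKM against 0.124, 0.0917 and 0.140 FPKM. Its groups did not overlap either, and its log2 difference was 3.01 ± 0.39 (adjusted p = 0.0199). Pramel25, a close copy of Pramel29, measured 19.96, 7.06 and 2.90 FPKM against 0.0155, 0 and 0.109 FPKM. The Pramel25 groups were likewise apart, with a log2 difference of 3.07 ± 0.53 (adjusted p = 0.0321).

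Oog1, an oogenesin that binds the Ral exchange factor RALGDS, measured 3.40, 3.79 and 1.62 FPKM in F1-HHcy and 0.0422, 0.0553 and 0.169 FPKM in controls at Pd3. Its lowest F1-HHcy library stood above its highest control library, and the log2 difference was 1.81 ± 0.24 (SE, limma, adjusted p = 0.0203). Pramel34 measured 10.1, 4.96 and 3.07 FPKM against 0.112, 0.170 and 0.440 FPKM. It too was apart between the diets, with a log2 difference of 2.39 ± 0.34 (adjusted p = 0.0216). Both genes passed the filter through F1-HHcy alone, and both share many stretches with relatives, as given above.

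Oog3, Oog4 and Pramel51 were higher in every F1-HHcy library at Pd3 without passing the adjusted threshold. For Oog3 and Oog4, which passed the filter through F1-HHcy alone, the groups had to be apart. Oog3 measured 9.94, 1.16 and 3.11 FPKM in F1-HHcy and 0 in all 3 controls, which is 944 fragments against 0. With the 3 fragments that a count of 0 over the group allows, Oog3 was at least 313.5-fold higher in F1-HHcy, and at least 138.9-fold without F1-HHcy replicate 1, which held 668 of the fragments. Its log2 difference was 2.201 ± 0.51 (SE, limma, adjusted p = 0.0635). Oog4 measured 21.3, 6.80 and 1.89 FPKM against 0.344, 0.225 and 0.503 FPKM (adjusted p = 0.0727), and Pramel51 measured 26.2, 15.7 and 3.07 FPKM against 0.270, 0.619 and 1.14 FPKM (adjusted p = 0.0559). The F1-HHcy libraries differed widely, and the third was the lowest for 14 of the 19 members while the first was the highest for 13. Pramel27 is an example, with 1153, 435 and 15 fragments in the F1-HHcy libraries and 3, 5 and 2 in controls.

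Of the 12 members tested at Pd3, 5 were higher in F1-HHcy at an adjusted p under 0.05, against 1.64% of all genes, and none was lower (0, against 1.43%). By the study's volcano criterion, an unadjusted p under 0.05 with a log2 difference above 0.58 in size, 9 were higher (background 5%) and Pramel1 was lower (4.74%). Oog1, Oog3, Oog4, Pramel25, Pramel29 and Pramel34 passed the filter of 1 FPKM in 3 of 6 libraries through F1-HHcy alone and had to differ, so these counts are a description. Without a filter 32 members had fragments at Pd3, and in 13 of them every F1-HHcy value lay above every control value, against 9.19% of all genes with fragments. A limma-voom fit on recovered fragments without a filter, added after the data were seen, called 4 of these 32 higher (Oog1, Oog3, Pramel29 and Pramel34, background 0.665%). That fit did not call Pramel26 (adjusted p = 0.0554) or Pramel25 (adjusted p = 0.051). The median log2 difference was 2.30 over the 12 members tested, 0.19 over the 32 on log2(FPKM + 1) without a filter, and -0.03 over all genes tested. The count of 5 became 9 without F1-HHcy replicate 3, 2 without F1-HHcy replicate 2, 1 without control replicate 3 and 0 without control replicate 1 or 2, and it was 0 on log2(FPKM + 1) without the filter, where no gene of 27825 was called (0%). In whole ovaries fewer cells that carry an RNA and less of it per cell cannot be told apart.

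At Pd7 more members were higher in F1-HHcy ovaries, and the standard errors of those called ran from 0.17 to 0.32, against 0.24 to 0.55 at Pd3. Oog3 measured 39.6, 31.2 and 45.2 FPKM in F1-HHcy against 0.680, 0.839 and 2.32 FPKM in controls. The lowest F1-HHcy value of Oog3 was far above its highest control value, and the log2 difference of 4.18 ± 0.26 (SE, limma, adjusted p = 0.000248) ranked 2 among 13299 genes. Oog4 measured 42.3, 37.0 and 60.3 FPKM against 4.33, 4.27 and 8.31 FPKM. Its log2 difference was 2.86 ± 0.25 (adjusted p = 0.00102). Oog2 measured 6.85, 3.81 and 11.9 FPKM against 0.215, 0.377 and 0.799 FPKM, with a log2 difference of 2.45 ± 0.32 (adjusted p = 0.00312). The 4 oogenesins were all called higher in F1-HHcy at Pd7, Oog1 by the least with 1.12 ± 0.18 (adjusted p = 0.00658). Oog2 passed the filter through F1-HHcy alone, so its groups had to be apart. Without a filter, the test on log2(FPKM + 1) called Oog3 and Oog4 of the 4, and limma-voom called all 4.

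Among the Pramel genes at Pd7, Pramel29 measured 34.0, 25.3 and 46.3 FPKM in F1-HHcy and 2.67, 3.39 and 5.42 FPKM in controls. Pramel25 measured 47.7, 34.7 and 50.2 FPKM against 3.43, 3.60 and 10.3 FPKM. In both genes the diets were apart in all libraries, with log2 differences of 2.91 ± 0.25 (limma, adjusted p = 0.00102) and 2.87 ± 0.32 (adjusted p = 0.0018). Pramel27 measured 38.7, 28.8 and 31.8 FPKM against 3.27, 3.84 and 8.52 FPKM, so its F1-HHcy libraries lay much closer together than those of Pd3 (log2 difference 2.54 ± 0.27, adjusted p = 0.00138). Pramel26 measured 87.1, 68.8 and 87.4 FPKM against 17.6, 20.4 and 36.5 FPKM. Its groups were apart, but its log2 difference of 1.73 ± 0.24 (adjusted p = 0.00404) was among the smaller ones called, with Oog1, Pramel48 and Pramel23 below it. Pramel23 measured 2.69, 1.78 and 3.03 FPKM against 0.139, 0.140 and 0.165 FPKM, with a log2 difference of 1.59 ± 0.17 (adjusted p = 0.00138). Like Oog2, it passed the filter through F1-HHcy alone.

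Pramel32 (18.7, 15.4 and 23.5 against 3.92, 3.09 and 5.10 FPKM), Pramel34 (20.9, 18.5 and 21.8 against 2.68, 2.74 and 6.08 FPKM), Pramel51 (47.0, 37.2 and 48.5 against 10.98, 10.7 and 15.8 FPKM) and Pramel48 (3.34, 2.54 and 4.24 against 0.709, 0.970 and 1.19 FPKM) were also higher in every F1-HHcy library at Pd7. Their log2 differences were 2.01, 2.22, 1.76 and 1.15, with adjusted p-values of 0.00121 to 0.00673. Of the 16 members tested 13 were thus higher, against 5.88% of all genes, and none was lower (0, against 5.98%). Oog2 and Pramel23 passed the filter through F1-HHcy alone and had to differ. Leaving out any 1 of the 6 libraries gave 13 each time. The unfiltered limma-voom fit called 15 of 37 members with fragments higher (background 2.92%), the 13 above with Pramel14 and Pramel47. Pramel14 and Pramel47 share many stretches with other genes, as given above. The test on log2(FPKM + 1) without a filter called 7 (background 0.224%). The median log2 difference was 1.88 over the 16 members, 0.06 over the 37 on log2(FPKM + 1) without a filter, and -0.001 over all genes tested.

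At Pd21 no member differed by diet at an adjusted p under 0.05. Pramel26 measured 110, 86.2 and 115 FPKM in F1-HHcy against 91.9, 84.9 and 57.3 FPKM in controls, and the groups overlapped. Its log2 difference was 0.42 with a 95% interval of -0.06 to 0.90 (limma, adjusted p = 0.896). Oog3 measured 65.2, 69.7 and 78.2 FPKM against 64.3, 54.5 and 27.9 FPKM. These sets did not overlap, by a narrow margin, and the interval of the log2 difference ran from -0.04 to 1.25 (adjusted p = 0.813). All 18 members tested had estimates above 0, from 0.07 (Pramel47) to 0.64 (Oog2), with a median of 0.47 against -0.01 over all 13350 genes.

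Oog2, Oog3, Pramel29 and Pramel32 had every F1-HHcy library above every control library at Pd21, which is 4 of 18 members against 1.92% of all genes. Control Pd21 replicate 3 was the lowest of its group for 17 of the 19 members, and without it the median fell to 0.16. No gene in the whole table was higher in F1-HHcy at the adjusted threshold on that day (0%, and 2.23% were lower), 11 genes were by the volcano criterion (0.0824%), and the unfiltered limma-voom fit called 2 genes (0.00719%), neither of them a member. Control Pd21 libraries also carried RNA of multiciliated oviduct cells, with a summed level of 56.6 to 211 FPKM over the 6 markers against 4.96 to 8.81 in F1-HHcy. Its part in the levels of the members was not tested.

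**Figure D3:**
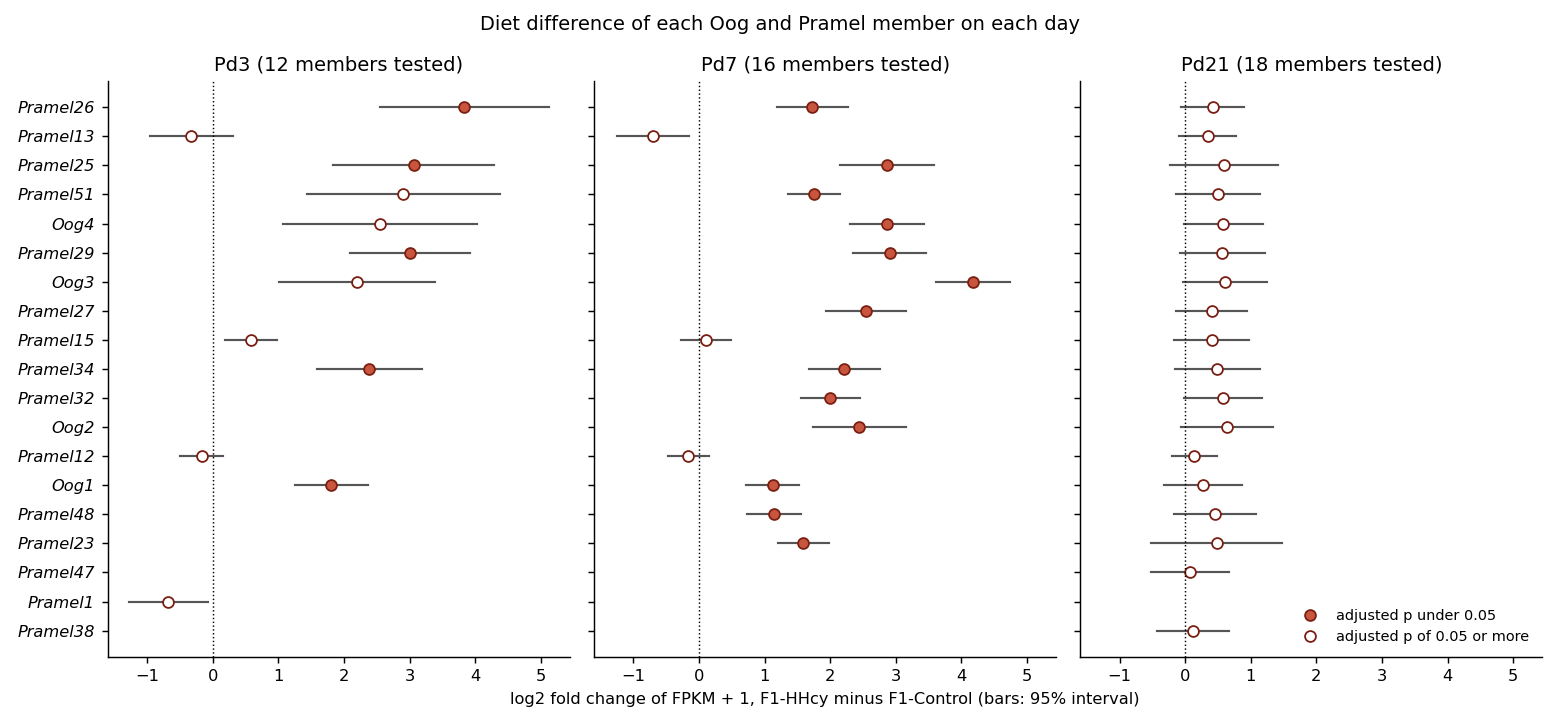
Points are log2 differences of FPKM + 1 between F1-HHcy and F1-Control with their 95% intervals, 1 panel per day, for members tested that day, ordered by mean level; filled points have an adjusted p under 0.05 (limma). There are 5 filled points in the Pd3 panel, 13 in the Pd7 panel and 0 in the Pd21 panel, where all intervals include 0.

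The diet difference was then compared between days in 1 model of all 18 libraries. From Pd3 to Pd7 none of the 19 members changed its diet difference at an adjusted p under 0.05 (0 higher, against 0.103% of genes, and 0 lower, against 0.308%), and 4 did by the volcano criterion, Oog2, Oog3 and Pramel23 upward (4.75% of genes) and Pramel26 downward (5.28%). From Pd3 to Pd21 it was smaller in 6 members, Oog1, Pramel25, Pramel26, Pramel29, Pramel34 and Pramel51, against 3.78% of genes, and larger in none (0, against 0.815%). Pramel26 had the largest of these drops, with a change of -3.41 ± 0.60 on the log2 scale (SE, limma, adjusted p = 0.00218). From Pd7 to Pd21 it was smaller in Oog3, by -3.57 ± 0.60 (adjusted p = 0.00161), and in Pramel29, by -2.34 ± 0.51 (adjusted p = 0.013), against 2.9% of genes, and again larger in none (0, against 0.986%). Each diet difference lies within 1 batch, but its change from Pd3 or Pd7 to Pd21 joins 2 batches, so a change with age and a change with batch cannot be told apart. The count of 6 ranged from 3 to 10 when single libraries were left out, and that of 2 from 2 to 8, the highest in both cases without F1-HHcy Pd3 replicate 3.

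Means of F1-HHcy on a given day are set here beside those of controls on the next day sampled. Pramel26 had a mean of 29.0 ± 18.6 FPKM in F1-HHcy at Pd3 and 24.8 ± 10.2 in controls at Pd7, and 81.1 ± 10.7 in F1-HHcy at Pd7 and 78.1 ± 18.3 in controls at Pd21 (mean ± SD, n = 3). Pramel29 had means of 9.34 ± 6.97 and 3.83 ± 1.43 FPKM in the first pair and 35.2 ± 10.6 and 48.6 ± 18.3 in the second. Oog3 had 4.74 ± 4.61 and 1.28 ± 0.90 FPKM in the first and 38.7 ± 7.01 and 48.9 ± 18.8 in the second. In the first pair the libraries of both groups overlapped for each gene, and the means lay closer together than the larger SD. For Pramel29 and Oog3 the F1-HHcy mean at Pd3 leaned on replicate 1 (17.4 and 9.94 FPKM). The other F1-HHcy libraries there measured 5.41 and 5.23 FPKM for Pramel29 and 1.16 and 3.11 FPKM for Oog3. These pairs were not tested, and the second crosses batches.

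Pramel13, Pramel12 and Pramel15 were already present in control ovaries at Pd3, and none of them was called by diet on any day. Pramel13 measured 29.8, 39.3 and 69.2 FPKM in F1-HHcy at Pd3 and 25.3, 20.3 and 39.3 FPKM at Pd7, against 39.6, 59.6 and 38.4 FPKM in Pd7 controls. The diets overlapped on both days, with log2 differences of -0.33 (95% interval -0.96 to 0.31, limma, adjusted p = 0.516) and -0.70 (-1.25 to -0.15, adjusted p = 0.0906). Pramel13 was lower without F1-HHcy Pd3 replicate 3 at that day (log2 difference -0.66, adjusted p = 0.0146). Pramel12 stayed between 4.402 and 6.506 FPKM in all 18 libraries, and its 95% intervals for the diet ran from -0.50 to 0.16 at Pd3 and from -0.48 to 0.16 at Pd7. Pramel15, which has been tied to the loss of DNA methylation in zygotes, measured 14.9, 15.5 and 11.7 FPKM in F1-HHcy at Pd3 against 7.86, 8.02 and 11.3 FPKM. Its sets were just apart (log2 difference 0.58 ± 0.17, adjusted p = 0.105), and at Pd7 they overlapped (0.11 ± 0.17, adjusted p = 0.693).

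Pramel1 was lower in every F1-HHcy library at Pd3 than in every control library. It measured 0.133, 0.749 and 1.36 FPKM in F1-HHcy and 1.75, 1.56 and 1.71 FPKM in controls, or 228 against 515 fragments. Its log2 difference was -0.68 ± 0.26 (SE, limma, adjusted p = 0.185). At Pd7 it was under 1 FPKM in all libraries and outside the filter, with 19 fragments in F1-HHcy against 134 in controls (limma-voom without a filter, adjusted p = 0.0774). Pramel1 thus had the opposite direction to the oogenesins on both days without passing the threshold.

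The 21 members under the filter included 8 with at most 10 fragments in all 18 libraries together, and none of the 21 was at 0 in every library. The highest single value among them was 1.00 FPKM, for Pramel14 in a control Pd21 library. Pramel14 was at 0 in all 3 control Pd3 libraries and had 31, 7 and 1 fragments in F1-HHcy at Pd3, then 8, 11 and 25 in controls and 55, 48 and 63 in F1-HHcy at Pd7. Its diet groups were apart on both days, and limma-voom without a filter gave an adjusted p of 0.109 at Pd3 and 0.0463 at Pd7. Pramel14 shares 56.3% of its 100-base stretches with Pramel30, so these values are uncertain. Members at or above 1 FPKM numbered 4 to 6 per library in controls and 13 to 15 in F1-HHcy at Pd3, 12 to 14 and 16 to 17 at Pd7, and 16 to 19 and 17 to 18 at Pd21.

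Members of all 4 chromosome groups that held expressed genes were higher in F1-HHcy ovaries at Pd7. The 23 members of the main chromosome 4 group summed to 118 ± 17.9 FPKM in controls and 343 ± 62.2 in F1-HHcy at Pd7 (mean ± SD, n = 3). The 10 on chromosome 5 summed to 5.40 ± 2.08 and 25.4 ± 3.29 FPKM, and Oog1 with Pramel51 on chromosome 12 to 14.9 ± 2.70 and 50.9 ± 7.05. Within the main group the neighbours Pramel15 and Pramel13 at one end and Pramel1 and Pramel12 at the other were the 4 expressed members not called higher at Pd7, and Oog4 and Pramel29, which were, lay inside of them. The order along the chromosome is a description of 12 expressed genes.

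RNA of other oocyte genes moved in the same comparisons and is given beside the members. At Pd3 all 13 genes of a growing-oocyte list (Gdf9, Bmp15, zona pellucida genes and others) had estimates above 0, with a median log2 difference of 1.53. Of these, 4 were called higher, against 1.64% of all genes. Gdf9, a growth factor of the oocyte, had means of 156 and 40.3 FPKM in F1-HHcy and controls (log2 difference 1.85, limma, adjusted p = 0.0388). At Pd7 the same list, again tested in full, had a median of -0.18, with 2 genes called higher and 3 lower. The Oog and Pramel median was 1.88, but only over the 16 of 40 members that passed the filter. Over the 37 members with fragments it was 0.06 on log2(FPKM + 1) without a filter. Bmp15 was higher at Pd7 (1.82, adjusted p = 0.003), and Padi6, of the cytoplasmic lattices, was lower (-1.35, adjusted p = 0.0284). The list of germ-cell and primordial-oocyte genes had medians of -0.81 at Pd3 and -1.16 at Pd7, when 10 of 12 were called lower and 1 higher. Of all genes tested at Pd7, 5.98% were called lower and 5.88% higher. The meiotic-prophase list had medians of -0.99 and -0.70.

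**Figure D4:**
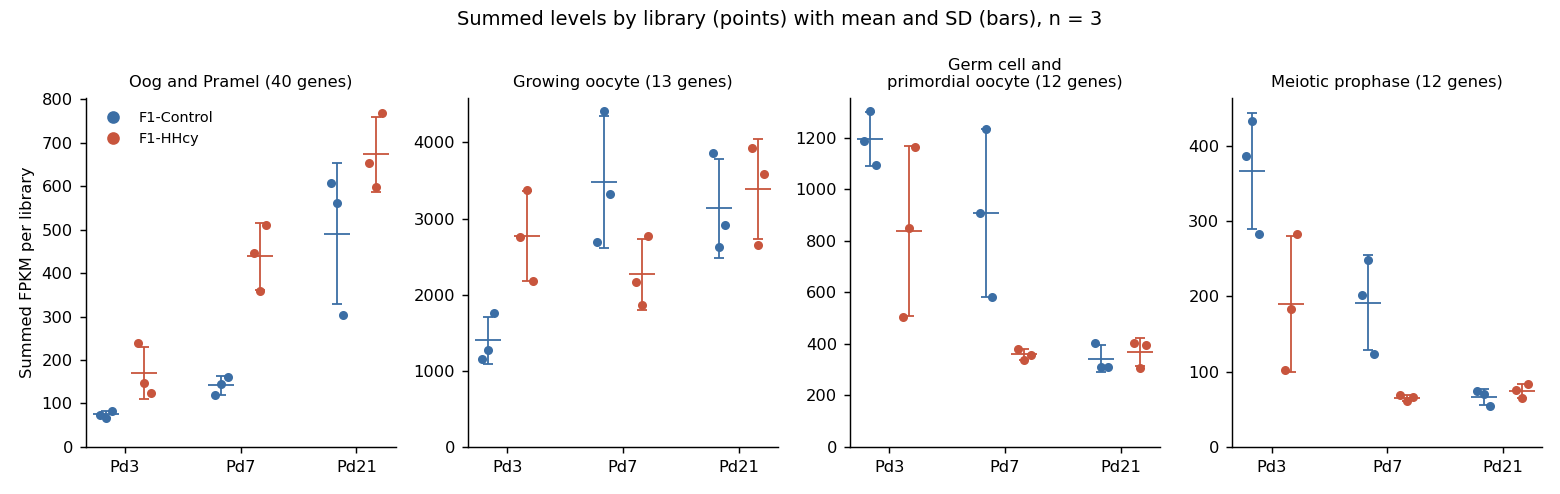
Summed FPKM per library (points) with the mean and SD of 3 libraries (bars) for the 40 members and for 3 lists of oocyte genes, by day; blue is F1-Control and red is F1-HHcy, and each y axis starts at 0. The family sum is 119 to 162 FPKM in controls and 358 to 510 in F1-HHcy at Pd7, whereas the growing-oocyte sum is 2695 to 4418 in controls and 1863 to 2775 in F1-HHcy.

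Genes of other cell types moved as well. The granulosa list had medians of 1.39 at Pd3 and 1.01 at Pd7, with 2 of 7 and 3 of 10 tested genes called higher, and the theca list had 1.15 and 1.72, with 1 of 4 and 8 of 8 (1.64% and 5.88% of all genes were called higher on these days). The stroma list had a median of 0.89 at Pd3, with 3 of 7 called higher, and of 0.299 at Pd7, with 1 of 7. The surface epithelium list had medians of -0.37 and -0.66, with 0 of 7 and 3 of 7 called lower (1.43% and 5.98% of all genes). The erythroid list had a median of -3.21 at Pd3, where its summed level was 3941 to 11288 FPKM in controls and 784 to 1108 in F1-HHcy, and of -2.50 at Pd7. The library with the highest growing-oocyte sum was also the one with the most family RNA in 3 of the 6 groups (control Pd3, F1-HHcy Pd7 and control Pd21) and another one in the other 3. The part of oocyte number, oocyte stage and blood content in the levels of the members was not tested. Left without mitochondrially encoded and hemoglobin genes, the table again gave 5, 13 and 0 members higher on the 3 days.

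The oocyte transcription factors Nobox, Lhx8 and Figla, whose elements were searched in the promoters, were not called higher by diet on any day. Sohlh1 and Sohlh2, which belong to the germ-cell and primordial-oocyte list, are not described singly. Nobox measured means of 74.0 and 78.6 FPKM in F1-HHcy and controls at Pd3 and 32.4 and 73.7 at Pd7, where it was lower (log2 difference -1.18, limma, adjusted p = 0.0153). Lhx8 was lower at Pd7 as well (-0.97, adjusted p = 0.0263), and so was Figla, which binds E-boxes of zona pellucida genes (-2.17, adjusted p = 0.0031). At Pd21 none of these 3 genes was called, with log2 differences of 0.07, 0.28 and -0.06. RNA levels of whole ovaries say nothing of binding at the promoters.

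Genes whose proteins are known to work with PRAME-family proteins were checked from a list of 7. Cul2, Elob, Eloc and Rbx1 are parts of the ligase, Uhrf1 and Dnmt1 maintain DNA methylation and have been named as targets of family members, and Ralgds encodes the partner of Oog1. None of the 7 was called on any day (0 each time), and 1 passed the volcano criterion, Dnmt1 at Pd3. Dnmt1 had means of 68.6 FPKM in F1-HHcy and 32.6 in controls at Pd3 with overlapping groups (log2 difference 1.009 ± 0.30, adjusted p = 0.107), and 90.4 and 70.3 at Pd7. Uhrf1 had means of 70.8 and 73.5 FPKM at Pd3 and 51.1 and 71.8 at Pd7. Cul2 was lower in every F1-HHcy library at Pd3 and Pd7, with log2 differences of -0.27 (adjusted p = 0.155) and -0.44 (adjusted p = 0.0645). The list's medians were -0.05, -0.44 and 0.05 at Pd3, Pd7 and Pd21.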

How the data were processed

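Libraries were stranded poly-A RNA-seq of whole ovaries. Per the labels, GRCm38 (mm10) and the tools FastQC 0.11.9, Trimmomatic 0.39, STAR 2.7.9a, featureCounts 2.0.1 and DESeq2 1.36.0 were used, with no role or order stated here. The authors deposited 1 FPKM value per gene symbol and library, without naming the unit. It was read as FPKM because 1 length per gene and 1 factor per library turned values into whole fragments (within 0.01) for 27293 of 27294 genes above 0 in at least 3 libraries.

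Diets were compared on each day with limma 3.58.1 (R 4.3.3) on log2(FPKM + 1), with a variance trend on the mean, keeping genes at 1 FPKM or more in 3 or more of the 6 libraries, and p-values were adjusted over all these genes by the Benjamini-Hochberg method. The log scale understates changes of low genes. Diet-by-day and Pd7-against-Pd3 contrasts came from 1 model of 18 libraries and 14607 genes. Interval bounds and counts of 0 cover 95% and 3 fragments, the latter for counting error only. All 18 libraries were mapped by their labels, and replicate numbers were not used as pairs. Members and gene lists were chosen with earlier results of these data known. Members described library by library were the 12 highest on average, those past the threshold in any diet test, and Pramel1 and Pramel3. Further members (Pramel12, Pramel14) were picked after their values were seen. The test was tried on simulated data. Alternatives were a pseudocount of 0.1, no filter, other scaling, limma-voom, a replicate block, the volcano criterion and leaving out libraries. Python 3.11.15 and matplotlib 3.10.9 made tables and figures.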

Additional observations from a re-analysis of the deposited data

Results flagged for a closer look

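In 8 cases the diet difference of a member changed between days by a direct test in the model of 18 libraries (limma, adjusted p over 14607 genes), and each is a decrease toward Pd21, the day whose libraries form batch 2 by the labels. From Pd3 to Pd21 the log2 diet difference of Pramel26 changed by -3.41 (adjusted p = 0.00218), that of Pramel25 by -2.47 (0.0496), that of Pramel29 by -2.44 (0.00908), that of Pramel51 by -2.41 (0.0491), that of Pramel34 by -1.90 (0.0273) and that of Oog1 by -1.54 (0.0153). From Pd7 to Pd21 it changed by -3.57 in Oog3 (0.00161) and by -2.34 in Pramel29 (0.013). Pramel29 is the member found in both comparisons. Age and batch cannot be told apart in these changes.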

How the results depend on the processing

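At Pd3 the 5 members called higher became 8 with a pseudocount of 0.1, 0 without a filter, 0 with the replicate number as a block, 11 of 19 with all 18 libraries in 1 model, and 9 with 1 lower by the volcano criterion. Over all genes, no filter gave 0% higher, and the volcano criterion gave 5% higher and 4.74% lower. For the other settings the share of all genes called is not given, so their counts describe the members only. The median of 2.30 became 3.98 (pseudocount 0.1), 0.19 (no filter), 4.48 (limma-voom), 1.85 (limma-voom without a filter, added after the data were seen) and 1.81 (18 libraries). At Pd7 no filter gave 7 in place of 13 members higher, the volcano criterion gave 1 lower, and the median of 1.88 became 2.36 (pseudocount 0.1), 0.06 (no filter), 2.39 (limma-voom) and 1.41 (limma-voom without a filter). At Pd21 the median of 0.47 became 0.088 without a filter. A pseudocount of 0.1 gave 1 member with a changed diet difference from Pd3 to Pd7 and 10 from Pd3 to Pd21, where no filter gave 3. Without a filter 7 members rose with age in F1-HHcy. The tests without a filter include members with few fragments. Other causes were not tested.

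Leaving out single libraries gave 0 to 9 members higher and 0 to 2 lower at Pd3 (median 1.76 to 2.51), 13 higher each time and 0 to 1 lower at Pd7 (1.76 to 2.09), and 0 in each direction at Pd21 (0.16 to 0.67). Members with a changed diet difference numbered 0 to 2 (Pd3 to Pd7), 3 to 10 (Pd3 to Pd21) and 2 to 8 (Pd7 to Pd21). Pd7 against Pd3 gave 8 to 11 higher and 0 to 1 lower in controls and 1 to 14 higher and 0 to 2 lower in F1-HHcy. Deviations of same-numbered libraries of the 2 diets from their group means had correlations of -0.338 to 0.0872. Deviations from a mean of 3 libraries sum to 0, so these values cannot decide whether the numbers pair libraries. Apart from the Pd3 count given above, the replicate block moved no count by more than 1.5 times. No median of the members reversed its sign under any alternative run. Among the members described library by library, none reversed where it was called in either fit. Sign changes of members not called were not counted.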
